A study of Mus musculus with 62 samples.

Results

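Histone H3 acetylated at lysine 27 (H3K27ac) was compared between Daxx-KO and WT hematopoietic stem and progenitor cells (HSPCs) of mouse bone marrow at 24 weeks post-induction (w.p.i.). The members were all 193657 sites of the table for this mark and time, out of 1987591 sites over the series' tables of comparisons. The table holds 2 Daxx-KO libraries (Daxx F/F Cre +/-) and 2 WT libraries (Daxx +/+ Cre +/-), each from a C57BL/6 animal with its own number in the labels. Both groups carried Cre and were taken at the same time after its induction, so by their labels they differed in the floxed Daxx allele. The mark was mapped by CUT&Tag, in which a Tn5 transposase tethered to an antibody cuts and tags DNA near the marked nucleosomes. HSPCs were Lin- c-Kit+ cells enriched magnetically, which is a mixture of stem cells and committed progenitors of several lineages. The Cre driver, sex and exact age of these 4 mice were not given in the sources used here.

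H3K27ac is laid down by the acetyltransferases CBP and p300 at active promoters and enhancers, and it is used to read which regulatory elements of a cell type are in use. DAXX is a chaperone that, with ATRX, deposits the histone variant H3.3, mostly at heterochromatin and repeats, and it can hold co-repressors such as histone deacetylases. In marrow progenitors, lineage enhancers are bound by factors such as PU.1 (encoded by Spi1), GATA2, RUNX1 and C/EBP proteins. Granulocytic genes, including those for the neutrophil granule proteins, are activated as progenitors move towards the neutrophil fate.

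The deposited value of a site is the number of reads in it after a scaling between libraries, given here as normalized counts. A site was called higher when each Daxx-KO value exceeded each WT value, lower in the reverse case, and overlapping otherwise. All sites had already been selected by a test between these same groups, so a separation of the libraries was mostly fixed by that selection, and no test across sites was made. With 2 libraries against 2, an exact permutation test of 1 site cannot give a p below 0.333. Sites were called promoter sites when they lay within 1 kb of an annotated transcription start site, and distal sites otherwise. Distal sites were assigned to the nearest protein-coding start within 100 kb.

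Sequences of 7 regions on which the results turn are shown first, each as 200 bases of the site. For the first 5 these are the bases that held the most of the marked letters. For the last pair they are the bases at the middle of the site. All are plus-strand reference sequence of mm10 (GRCm38). In the first 5, capitals mark the words of the factors: TTGCNNAA for C/EBP, GAAANNGAA for IRF, CAGCTG for an E-box and GGGCGGGG for SP/KLF, each searched on both strands. A pair of the SP/KLF matches in Klf4 overlap each other. The first region, chr3:90663621-90663820, lies upstream of the neutrophil gene S100a8 and was higher in Daxx-KO.
S100a8 upstream site: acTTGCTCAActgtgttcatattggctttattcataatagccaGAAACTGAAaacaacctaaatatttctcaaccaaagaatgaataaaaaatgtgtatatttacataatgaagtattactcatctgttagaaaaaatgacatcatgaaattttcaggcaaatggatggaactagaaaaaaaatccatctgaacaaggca
The next 2 regions are enhancers that were higher, chr7:35156421-35156620 downstream of Cebpa and chr6:88115681-88115880 upstream of Gata2.
Cebpa downstream enhancer: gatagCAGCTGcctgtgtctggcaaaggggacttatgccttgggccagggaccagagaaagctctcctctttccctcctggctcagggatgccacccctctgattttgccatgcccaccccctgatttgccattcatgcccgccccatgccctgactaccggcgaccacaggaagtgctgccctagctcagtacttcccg
Gata2 upstream enhancer: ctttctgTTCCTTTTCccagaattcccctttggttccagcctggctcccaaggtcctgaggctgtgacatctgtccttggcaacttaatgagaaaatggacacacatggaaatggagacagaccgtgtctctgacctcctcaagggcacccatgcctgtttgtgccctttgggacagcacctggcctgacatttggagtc
The intronic region chr2:181436621-181436820 upstream of the dendritic-cell gene Zbtb46 and the Klf4 promoter region chr4:55532531-55532730 were lower.
Zbtb46 upstream site: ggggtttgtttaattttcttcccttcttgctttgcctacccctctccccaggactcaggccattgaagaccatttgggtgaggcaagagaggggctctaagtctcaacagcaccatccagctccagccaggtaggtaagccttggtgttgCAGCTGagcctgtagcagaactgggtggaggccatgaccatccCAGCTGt
Klf4 promoter: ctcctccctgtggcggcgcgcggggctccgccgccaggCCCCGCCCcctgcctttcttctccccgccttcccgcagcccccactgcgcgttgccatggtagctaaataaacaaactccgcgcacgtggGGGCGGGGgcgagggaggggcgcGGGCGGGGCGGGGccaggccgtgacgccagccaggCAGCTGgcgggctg
The last pair contrasts the start of Mcm5 (chr8:75109421-75109620), which was higher, with its flank (chr8:75111101-75111300), which was lower. Here capitals mark CG dinucleotides, of which the start held 20 and the flank 2.
Mcm5 start: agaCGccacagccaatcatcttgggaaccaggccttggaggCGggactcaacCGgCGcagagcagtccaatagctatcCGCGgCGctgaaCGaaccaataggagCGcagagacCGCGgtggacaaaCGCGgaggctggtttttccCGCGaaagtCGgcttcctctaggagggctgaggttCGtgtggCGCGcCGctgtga
Mcm5 flank: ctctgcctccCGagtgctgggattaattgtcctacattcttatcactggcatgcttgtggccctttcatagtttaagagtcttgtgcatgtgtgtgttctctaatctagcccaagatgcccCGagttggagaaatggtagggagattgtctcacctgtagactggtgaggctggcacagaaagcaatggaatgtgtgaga

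The Daxx gene itself was read first, since it checks the genotype labels. The floxed part spans exons 2 to 7. A site inside it (chr17:33909801-33913400, covering exons 2 to 5 and the first part of exon 6 of the transcript Daxx-201) held normalized counts of 113 and 93.7 in Daxx-KO against 858 and 368 in WT. It was lower in both Daxx-KO libraries, the direction that the genotype labels call for, with a ratio of group means of 0.170. The promoter site just upstream (chr17:33908401-33909500) held normalized counts of 1570 and 1036 in Daxx-KO, compared with 775 and 581 in WT, and the site over exon 8 (chr17:33914651-33916950) held 1875 and 1617 in Daxx-KO against 712 and 914 in WT. Both sites outside the floxed part were higher, so the loss of signal stood between 2 sites of gain.

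Depth and scaling bear on every direction below. The mean number of reads per 600-bp window was 7.17 and 3.97 in Daxx-KO, compared with 7.54 and 10.30 in WT before scaling. After the deposited scaling these means were 5.39 and 5.84 in Daxx-KO against 8.38 and 8.17 in WT. Setting all libraries to the same mean would move the median log2 ratio over all sites from -1.01 to -0.46. Where the share of higher sites of a gene list crosses 50% under this scaling, both shares are given.

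Both Daxx-KO libraries were above both WT libraries at 80019 sites, which is 41.3% of all sites, and below both at 108380 sites, or 56%. The remaining 5258 sites overlapped. The log2 ratio of group means (each plus 1) had a median of 1.43 at higher sites, with quartiles of 1.02 and 1.94, and of -1.63 at lower sites, with quartiles of -2.21 and -1.23. The median absolute log2 difference was 1.52 between the group means, 0.47 between the Daxx-KO libraries and 0.39 between the WT libraries. The higher sites carried 78.6% and 77.6% of the listed signal in the Daxx-KO libraries but 46.6% and 45.6% in the WT libraries. In bulk libraries, more cells of a type and more of the mark per cell cannot be told apart.

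Promoter and distal sites differed in balance. Of 37787 promoter sites, 17890 were higher (47.3%) and 18393 lower (48.7%), while of 155870 distal sites, 62129 were higher (39.9%) and 89987 lower (57.7%). Among separated sites, 49.3% of promoter sites were higher (Wilson 95% interval 48.8 to 49.8%) against 40.8% of distal sites (40.6 to 41.1%). These intervals cover counting error only, since sites are not replicates. With the same mean reads per window, the shares were 56.8% and 44.7%, so the promoter balance crossed 50% with the scaling, whereas promoter sites stayed above distal sites under each scaling run. Exonic distal sites were higher in 45.4% of separated cases, intergenic sites in 44.0% and intronic sites in 38.4%.

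The promoter balance differed with position and with base composition. Separated sites centred in the 500 bp after a start were higher in 68.7% of cases and those in the 500 bp before it in 64.2%. Between 500 and 1000 bp upstream the share was 38.1%, and between 1000 and 1500 bp downstream 39.0%. The share higher rose with the GC content of the central 600 bp, from 31.2% of separated sites under 40% GC to 80.8% over 60% GC. For promoter sites the same bands gave 25.2% and 84.3%, and for distal sites 32.4% and 66.2%. Each property was also read within bands of the other: within 500 bp of a start the share was 28.4% below 45% GC and 86.8% above 60% GC, and at 500 to 1500 bp it was 25.1% and 77.3%. This profile was drawn after the values had been seen.

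**Figure D1:**
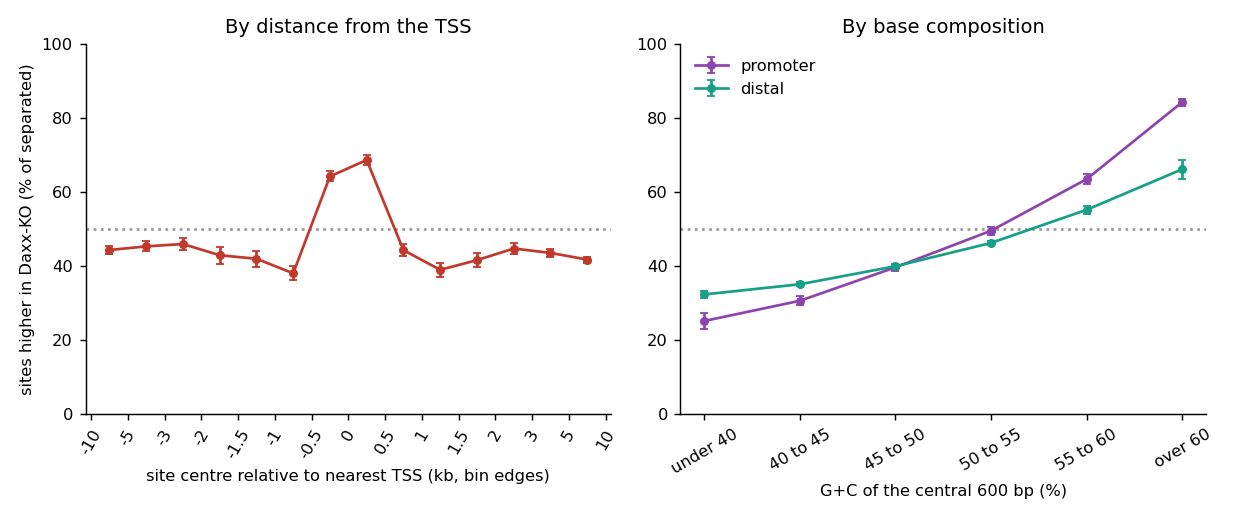
Share of separated H3K27ac sites that were higher in Daxx-KO, in percent, by bins of distance from the nearest transcription start site (TSS) in kb (left, bins of unequal width) and by bands of GC content for promoter and distal sites (right). Bars are Wilson 95% intervals and the dotted line marks an even split. The share peaks at 68.7% just after the start and at 84.3% for promoter sites over 60% GC.

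Single genes showed this contrast over short distances. Across all genes, 3701 had promoter sites of both directions, and in 2854 of these (77.1%) the strongest was the higher one. Mcm5, which encodes a subunit of the replicative helicase, held 638 and 543 normalized counts at its start in Daxx-KO as against 240 and 267 in WT. Its flanking site held 42.7 and 14.6 in Daxx-KO, compared with 128 and 173 in WT, so the direction turned within the gene's first few kilobases. Dnmt1, the maintenance DNA methyltransferase, had 1503 and 1525 normalized counts at its start in Daxx-KO as against 698 and 644 in WT. The adjoining upstream Dnmt1 site was at 7.49 and 5.85 in Daxx-KO against 42.5 and 39.6 in WT. Of 65 listed genes with promoter sites of both directions, the strongest site was higher in 54 and lower in 11. The cause of this pattern was not tested.

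The direction also differed with the level of a site. When sites were ranked by their mean level per kb, the share higher was 78.8% in the weakest decile, between 29.1% and 48.1% in the second to the ninth, and 72.8% in the strongest decile. In the strongest decile, 77.5% of promoter sites and 68.2% of distal sites were higher. Among 12769 genes with a promoter site, the strongest promoter site was higher in 7978 (62.5%) and lower in 4165 (32.6%). The strongest promoters of highly acetylated lists are therefore set beside those of all genes in the same decile below.

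**Figure D2:**
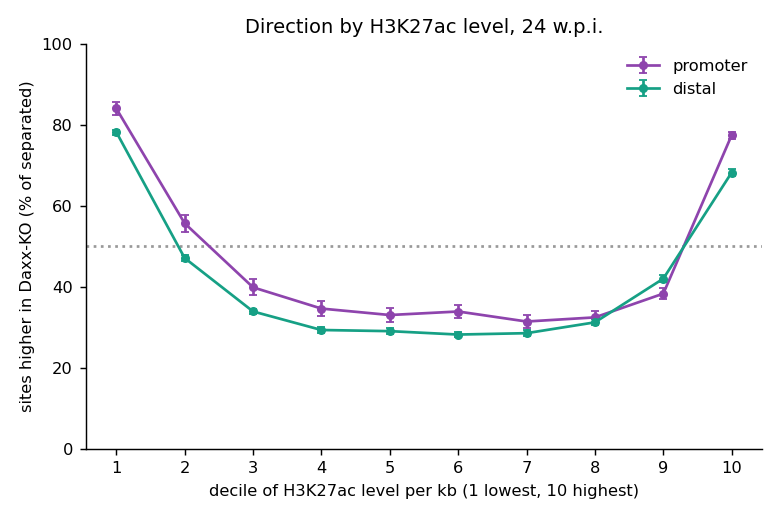
Share of separated H3K27ac sites higher in Daxx-KO, in percent, by deciles of the mean level per kb, for promoter and distal sites, with Wilson 95% intervals and a dotted line at an even split. The weakest decile reached 84.1% at promoter and 78.3% at distal sites and the strongest 77.5% and 68.2%, with lower shares between them.

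The neutrophil genes had the highest shares of higher sites among the 14 gene lists over all promoter sites and over distal sites, although at the strongest promoter site per gene the H3.3 chaperones and silencing factors were higher still, at 93.5%. Of the separated promoter sites of 25 such genes, 34 were higher and 5 lower (87.2%), against 54.6% for all protein-coding genes. Of their distal sites, 118 were higher and 42 lower (73.8%), against 40.6% for all genes, and the median log2 ratio over the distal sites was 0.89 against -1.08. Without any 1 library, the distal share ran from 73.8 to 73.9%. This range is no independent check, because the sites were selected by a test on these same libraries. The strongest promoter site was higher in 21 of 24 genes, lower in 2 and overlapping in 1, which is 91.3% of the separated ones, against 65.7% for all genes.

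Genes for granule proteins and other neutrophil effectors were read in each library. Elane, which encodes neutrophil elastase, held 1817 and 1894 normalized counts at its promoter (chr10:79883901-79888050) in Daxx-KO as against 689 and 793 in WT. Ngp, a granule protein gene, held 6981 and 6737 in Daxx-KO, compared with 2881 and 3440 in WT. At both genes the lowest Daxx-KO value lay well above the highest WT value. Padi4, a histone citrullinating enzyme used in neutrophil trap formation, held 8537 and 7500 in Daxx-KO against 3404 and 2971 in WT over a site of 12100 bp. Lcn2, which sequesters bacterial siderophores, held 4929 and 3776 in Daxx-KO, compared with 1801 and 1743 in WT. Ltf (lactoferrin) held 1994 and 1983 in Daxx-KO against 919 and 873 in WT. All 3 were separated by more than the spread within either pair. Mpo (myeloperoxidase) held 2704 and 3062 in Daxx-KO, compared with 1812 and 1543 in WT. The calprotectin genes were higher at the promoter too: S100a8 held normalized counts of 4574 and 4628 in Daxx-KO against 2424 and 2599 in WT, and S100a9 held 3185 and 3350 in Daxx-KO, compared with 1805 and 1922 in WT. Exceptions were Chil3, with 13.5 and 17.6 in Daxx-KO, compared with 59.2 and 75.9 in WT, and Anxa1, an anti-inflammatory annexin, with 244 and 302 in Daxx-KO against 359 and 363 in WT. The Anxa1 site turned higher when the libraries were set to the same mean reads. Ms4a3 overlapped, with 203 and 176 in Daxx-KO, compared with 199 and 417 in WT.

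The level of these promoters matters for their reading. Of the strongest promoter sites that lay in the strongest decile of all sites, 95.5% of the separated neutrophil ones were higher (21 higher, 1 lower), but so were 86.1% for all genes. Distal neutrophil sites exceeded all genes in each level band: 62.5% against 43.6% in the lower 5 deciles, 64.6% against 32.3% in the next 4 and 95.9% against 68.4% in the strongest. These bands were chosen after the values were seen. By gene, the distal sites of Cxcr2, the chemokine receptor that releases neutrophils from marrow, were 11 higher and 0 lower, those of Ltf 9 and 0, of Ly6g 7 and 0, and of S100a8 7 and 1. Hp (haptoglobin) went the other way, with 1 higher and 5 lower, as did Lyz2 with 2 and 5 and Chil3 with 3 and 4. The site 4703 bp upstream of S100a8 (chr3:90663501-90665050), whose sequence is shown above, held normalized counts of 1110 and 1004 in Daxx-KO against 242 and 309 in WT.

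**Figure D3:**
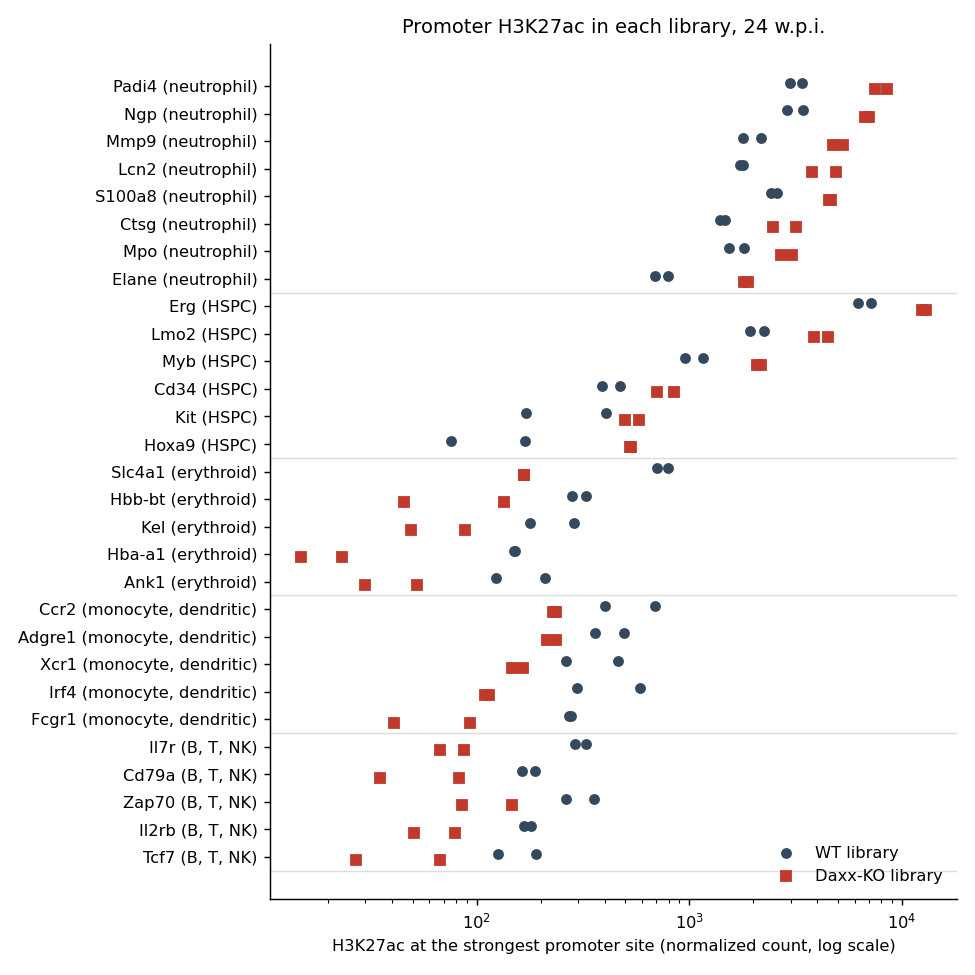
Normalized H3K27ac counts (log axis) at the strongest promoter site of single genes in each library, with 1 square per Daxx-KO and 1 circle per WT library. The genes were chosen after their values were seen and do not stand for their whole lists. The strongest promoter site was lower in 8 of 27 HSPC regulators and 2 of 24 neutrophil genes. It was higher in 11 of 23 erythroid and megakaryocyte genes and 8 of 17 monocyte and dendritic-cell genes. For B-lineage genes it was higher in 7 of 22, and for T- and NK-lineage genes in 7 of 19. Neutrophil and HSPC promoters such as Elane (1817 and 1894 against 689 and 793) lie higher in Daxx-KO, and the erythroid, monocyte, dendritic and lymphoid promoters drawn, such as Il7r (86.9 and 67.3 against 289 and 326), lie lower.

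Myeloid transcription factors were mixed at enhancers and higher at most of their strongest promoters. Among 17 genes with a promoter site, the strongest was higher in 13 (76.5%, against 62.5% for all genes) and lower in 3. In the strongest decile, which held 14 of them, 11 were higher and 2 lower (84.6%), near the 86.1% for all genes. Over all their promoter sites 21 were higher and 9 lower (70.0%, against 54.6% for all genes), or 85.2% with the same mean reads. Their distal sites were 203 higher and 200 lower (50.4%, against 40.6% for all genes), or 57.8% with the same mean reads. Gfi1, a repressor needed for granulopoiesis, held 3421 and 3205 normalized counts at its promoter in Daxx-KO as against 1571 and 1736 in WT. Cebpe, the factor of secondary-granule genes, held 3969 and 3508 in Daxx-KO, compared with 2110 and 2240 in WT. Stat3, downstream of the G-CSF receptor, held 6280 and 5091 in Daxx-KO against 3282 and 2474 in WT. Gfi1 also had 25 higher and 7 lower distal sites. Klf4, a factor of monocytic differentiation, ran the other way, with 911 and 1208 in Daxx-KO, compared with 4463 and 2955 in WT. The stretch of its promoter shown above is 76% GC with 23 CG. Cebpa had 1 higher promoter site, while its strongest one overlapped, with 384 and 369 in Daxx-KO against 695 and 338 in WT.

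Spi1, which encodes PU.1, was higher at all 3 of its promoter sites. The largest (chr2:91080301-91085200) held normalized counts of 15111 and 13801 in Daxx-KO, compared with 8985 and 8601 in WT. The intronic site that follows it (chr2:91085851-91089750) held 5651 and 5719 in Daxx-KO against 3158 and 3462 in WT. Of the distal sites nearest to Spi1, 7 were higher, 1 lower and 2 overlapping. Around the upstream regulatory element 14 kb before the start, 3 listed sites disagreed. The site over the position itself (chr2:91068051-91069000) was higher, with 69.7 and 58.55 in Daxx-KO against 25.7 and 30.1 in WT. This site had the opposite direction at 3 w.p.i. The strongest (chr2:91070301-91071200) held 894 and 847 in Daxx-KO, compared with 779 and 565 in WT. The remaining one (chr2:91067201-91068050) held 64.4 and 22.0 in Daxx-KO against 78.2 and 168 in WT and overlapped when set to the same mean reads. All 3 also lie within 1 kb of an annotated start.

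Known enhancers of blood regulators were looked up by their published distance from the start, within 2 kb. The Gata2 enhancer 77 kb upstream (chr6:88115501-88118100) held normalized counts of 1409 and 1645 in Daxx-KO, compared with 772 and 560 in WT. The Cebpa enhancer 37 kb downstream (chr7:35156051-35157000) held 1068 and 962 in Daxx-KO against 685 and 532 in WT, although the strongest Cebpa promoter site overlapped. The Runx1 intronic enhancer 23 kb downstream (chr16:92801301-92802500) held 1272 and 1369 in Daxx-KO, compared with 824 and 903 in WT. The strongest site in each of these 3 windows was thus higher in both Daxx-KO libraries, while the Cebpa window also held a weaker lower site, at 42.7 and 35.1 in Daxx-KO, compared with 98.3 and 77.5 in WT. Irf8, which directs monocyte and dendritic-cell fate, was split between its elements. Its enhancer 56 kb downstream (chr8:120792801-120794050) held 1278 and 1172 in Daxx-KO against 967 and 728 in WT. The Irf8 element 50 kb upstream (chr8:120684251-120686650), also within 1 kb of an annotated start, held 916 and 1067 in Daxx-KO, compared with 1581 and 1555 in WT. The Tal1 enhancer 40 kb downstream, known for erythroid activity, held 136 and 187 in Daxx-KO against 308 and 345 in WT, so this erythroid element was lower. Weaker windows held sites of both directions. At the Tal1 stem-cell enhancer 19 kb downstream, a lower site held 14.2 and 1.46 in Daxx-KO against 48.0 and 59.3 in WT, and a higher one held 32.2 and 73.2 in Daxx-KO, compared with 22.3 and 13.5 in WT. At the Fli1 enhancer 12 kb downstream, a higher site held 61.4 and 73.2 in Daxx-KO against 41.3 and 34.8 in WT, and a lower one held 15.7 and 22.0 in Daxx-KO, compared with 42.5 and 58.5 in WT. The Gata2 window 9.5 kb downstream held 2 higher sites, the longer at 134 and 126 in Daxx-KO against 62.6 and 53.8 in WT, and from another start it met a lower site with 13.5 and 22.0 in Daxx-KO, compared with 60.3 and 32.4 in WT. Counted from the first start of the gene, the elements of Gfi1 at -35 kb, Lmo2 at -75 kb, Erg at 85 kb and Myc at 1700 kb had no listed site. Counted from other annotated coding starts, the Erg windows met a higher site with 4397 and 4905 in Daxx-KO, compared with 2039 and 2480 in WT, among weaker sites of each kind. The Lmo2 windows then met a lower site (145 and 167 in Daxx-KO against 285 and 241 in WT) and a higher one (180 and 154 in Daxx-KO, compared with 118 and 122 in WT). The Myc windows met a lower site, at 21.0 and 11.7 in Daxx-KO against 40.2 and 79.9 in WT, and those of Gfi1 none. The Runx1 windows counted from 3 of its other coding starts met lower sites, the strongest at 259 and 259 in Daxx-KO, compared with 445 and 361 in WT, which overlapped when set to the same mean reads.

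HSPC regulators were mostly higher at their strongest promoters and split at enhancers. The strongest promoter site was higher in 18 of 27 genes and lower in 8, close to the background of 62.5% higher, and the distal sites were 259 higher and 281 lower (48.0%, against 40.6% for all genes), or 54.2% with the same mean reads. Erg held 12463 and 13036 normalized counts at its promoter in Daxx-KO as against 6203 and 7165 in WT, and its distal sites were 43 higher and 15 lower. Kit, the receptor used to enrich these cells, held 501 and 584 in Daxx-KO, compared with 408 and 172 in WT. Cd34 held 704 and 850 in Daxx-KO against 474 and 388 in WT. Hoxa9, a homeobox gene of progenitors, held 533 and 528 in Daxx-KO, compared with 76.0 and 169 in WT. These 4 genes, which mark the labelled cells, held signal in all 4 libraries. Ly6a, which encodes the stem-cell surface marker Sca-1, was lower, with 76.4 and 49.8 in Daxx-KO, compared with 113 and 134 in WT, and overlapped when set to the same mean reads. Genes of the list expressed in stem cells went both ways. Hlf, a transcription factor of stem cells, held 205 and 198 at its promoter in Daxx-KO as against 96.1 and 131 in WT, and Mecom held 323 and 323 in Daxx-KO, compared with 194 and 147 in WT. Procr, a stem-cell surface receptor, held 6.74 and 8.78 in Daxx-KO against 51.4 and 36.4 in WT, and Cdkn1c, a cell-cycle inhibitor, held 9.74 and 4.39 in Daxx-KO, compared with 35.8 and 69.6 in WT. The Mllt3 promoter site (chr4:87805901-87808350) held 16.5 and 23.4 in Daxx-KO against 163 and 146 in WT.

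Erythroid and megakaryocyte genes leaned lower at enhancers. Their distal sites were 64 higher and 142 lower (31.1%) against 40.6% for all genes, and by level band the shares were 36.0% against 43.6% in the lower 5 deciles, 25.0% against 32.3% in the next 4 and 62.5% against 68.4% in the strongest. Their strongest promoter sites were 11 higher and 12 lower of 23, and over all promoter sites 45.9% were higher, or 51.4% with the same mean reads. Slc4a1, the anion exchanger of red cells, held normalized counts of 168 and 167 in Daxx-KO, compared with 707 and 797 in WT. Hba-a1, an alpha-globin gene, held 15.0 and 23.4 in Daxx-KO against 150 and 152 in WT. Ank1, which encodes the red-cell membrane protein ankyrin, had 7 higher and 26 lower distal sites and held 29.97 and 52.7 in Daxx-KO, compared with 124 and 210 in WT at its promoter. In contrast, Nfe2 and Slc25a37, the mitochondrial iron importer, were higher, with 4647 and 3997 in Daxx-KO against 2368 and 2068 in WT at Nfe2 and 3519 and 2373 in Daxx-KO, compared with 1249 and 1421 in WT at Slc25a37.

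Monocyte and dendritic-cell genes were lower at enhancers as well, with 66 distal sites higher and 142 lower (31.7%, against 40.6% for all genes), or 38.7% with the same mean reads. Promoter sites were 15 higher and 17 lower (46.9%, against 54.6% for all genes), or 57.7% with the same mean reads. Irf4, a factor of dendritic and lymphoid cells, held 115 and 110 normalized counts at its strongest promoter in Daxx-KO as against 585 and 298 in WT. Ccr2, the chemokine receptor of inflammatory monocytes, held 237 and 230 in Daxx-KO against 402 and 693 in WT. By gene, 6 of this list had only higher promoter sites, 8 only lower ones and 3 both. Ly6c2, a marker gene of inflammatory monocytes, had 2 higher and 0 lower promoter sites. Its distal sites were 10 higher and 2 lower. The intronic site 12187 bp upstream of Zbtb46, a factor of classical dendritic cells, held 5.25 and 2.93 in Daxx-KO, compared with 136 and 153 in WT. The site 78061 bp downstream of Irf8 held 0.75 and 2.93 in Daxx-KO against 46.9 and 60.9 in WT. By level band, the distal share of this list was 41.9% against 43.6% for all genes in the lower 5 deciles, 19.6% against 32.3% in the next 4 and 50.0% against 68.4% in the strongest.

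Lymphoid genes were mostly lower at promoters, as were other promoters of a middle level. B-lineage promoter sites were 11 higher and 21 lower (34.4%), and T- and NK-lineage promoter sites were 9 higher and 28 lower (24.3%), against 54.6% for all genes. Most of their strongest promoter sites lay in the sixth to the ninth level decile, where 5 B-lineage ones were higher and 10 lower (33.3%) and 2 T- and NK-lineage ones were higher and 11 lower (15.4%), against 35.5% for all genes. The B-lineage share was thus close to that of promoters of the same level. At distal sites the shares were 35.8% and 42.3%, against 40.6% for all genes. Il7r, the receptor of lymphoid progenitors, held 86.9 and 67.3 normalized counts at its promoter in Daxx-KO as against 289 and 326 in WT. Zap70, a kinase of T-cell receptor signalling, held 85.4 and 146 in Daxx-KO, compared with 357 and 263 in WT. Tcf7 held 26.98 and 67.3 in Daxx-KO against 126 and 191 in WT. A site 20217 bp upstream of Ebf1, the factor that commits cells to the B lineage, was at 0 in both Daxx-KO libraries and at 62.6 and 40.3 in WT, which is at least 15.5-fold lower against a floor of 3 reads per library. Of the 28 B-lineage genes, 4 had only higher promoter sites, 13 only lower ones and 4 both. Rag2 and Igll1 each had 2 higher and 0 lower promoter sites, and Dntt had 8 higher and 2 lower distal sites. Cd3d had promoter sites of both directions. The strongest was higher, with 2833 and 2744 in Daxx-KO, compared with 1508 and 1653 in WT, and 2 others were lower, such as that with 49.5 and 45.4 in Daxx-KO against 114 and 130 in WT.

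**Figure D4:**
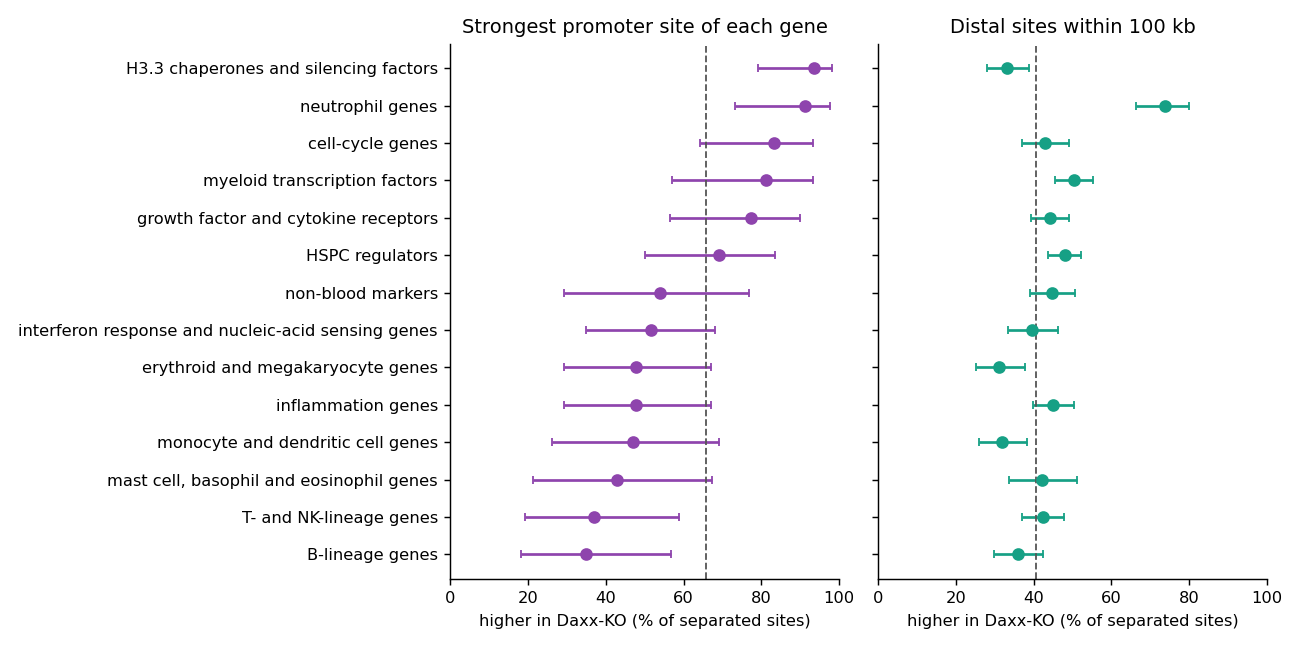
Share of separated H3K27ac sites higher in Daxx-KO, in percent, for each gene list at the strongest promoter site of each gene (left) and at distal sites within 100 kb (right), with Wilson 95% intervals for counting error and dashed lines at the share for all genes. Neutrophil genes lie at 91.3% and 73.8%, H3.3 chaperones and silencing factors at 93.5% and 33.1%, and T- and NK-lineage genes at 36.8% and 42.3%.

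Cell-cycle genes were mostly higher at their strongest promoter sites. Of 25 strongest promoter sites 20 were higher (80.0%, against 62.5% for all genes) and 4 lower, and in the strongest decile 17 were higher and 1 lower (94.4%, against 86.1% for all genes). Their distal sites were 112 higher and 149 lower (42.9%), against 40.6% for all genes. Cdk6, a kinase of progenitor cycling, held normalized counts of 7303 and 7872 in Daxx-KO against 3722 and 3793 in WT. Ccnb1, which encodes cyclin B1, was lower at its strongest promoter site, with 41.2 and 41.0 in Daxx-KO, compared with 143 and 197 in WT. Genes for H3.3 chaperones and silencing factors were higher at 29 of 33 strongest promoter sites (87.9%, against 62.5% for all genes), with 2 lower, but their distal sites were 97 higher and 196 lower (33.1%, against 40.6% for all genes). In the strongest decile, 25 of these promoter sites were higher and 1 lower (96.2%, against 86.1% for all genes).

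Interferon, inflammation and receptor genes were less clear, as their balance depended on the scaling. Over all genes, 54.6% of promoter and 40.6% of distal sites were higher. The same mean reads moved all sites too, from 49.3% to 56.8% at promoters and from 40.8% to 44.7% at distal sites. Interferon promoter sites were 27 higher and 33 lower (45%), but 63.8% were higher with the same mean reads, and their distal sites were 88 higher and 134 lower (39.6%). Inflammation promoter sites were 12 higher and 24 lower (33.3%), or 46.7% with the same mean reads, and distal sites were 151 higher and 185 lower (44.9%), or 50.3% with the same mean reads. Il6, the acute cytokine, held 9.74 and 8.78 normalized counts at a promoter site in Daxx-KO as against 139 and 72.0 in WT. An intronic site 53945 bp downstream of the start of Nfkb1, an NF-kB subunit, was high in Daxx-KO with 571 and 397 against 98.3 and 34.8 in WT. Growth factor and cytokine receptors were 26 higher and 14 lower at promoters (65.0%, or 76.5% with the same mean reads). In the strongest decile, 14 of their strongest promoter sites were higher and 2 lower (87.5%, against 86.1% for all genes). The receptors' distal sites were 165 higher and 209 lower (44.1%), and the balance reversed to 51.8% higher with the same mean reads. Flt3, the receptor of lymphoid-primed progenitors, held 632 and 499 in Daxx-KO against 145 and 188 in WT. In contrast, Csf3r, which encodes the G-CSF receptor, was lower at its strongest promoter site, with a log2 ratio of -0.62. That site overlapped when set to the same mean reads, and the distal sites of Csf3r were 7 higher and 4 lower. Mast cell, basophil and eosinophil genes split at 11 and 11 promoter sites (50.0%, or 57.1% with the same mean reads) and at 51 higher and 70 lower distal sites (42.1%). Genes listed as non-blood markers held 10 higher and 8 lower promoter sites, and 21 of the 34 had no separated promoter site. Not all of the list lacked the mark, since Pecam1 had 17 higher and 19 lower distal sites and Runx2 23 and 14. Myog, a muscle factor of this list, held 156 and 211 in Daxx-KO, compared with 44.7 and 60.1 in WT.

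The other genes fixed for naming fell on both sides. Fbp1, which encodes a gluconeogenic phosphatase, held 224 and 184 normalized counts at its promoter (chr13:62887301-62888750) in Daxx-KO as against 51.4 and 72.8 in WT. The site 1053 bp upstream of its neighbour Fbp2 (chr13:62858801-62860150) held 259 and 250 in Daxx-KO against 51.4 and 66.5 in WT. Nnt, a mitochondrial transhydrogenase, held 378 and 199 at its promoter in Daxx-KO as against 185 and 172 in WT. Mx1, an interferon-induced gene whose promoter drives a common Cre line, was split, with 1 promoter and 4 distal sites higher and as many lower. Its promoter site with the most reads (chr16:97460751-97463000) was lower, with 184 and 353 in Daxx-KO as against 555 and 601 in WT. The site strongest per kb, next to it, overlapped, with 244 and 271 in Daxx-KO, compared with 172 and 532 in WT, and 2 weaker lower sites inside or upstream of the gene overlapped when the libraries were set to the same mean reads. Sites within 5 Mb of these loci were higher in 54.2% of separated cases at Daxx, 47.4% at Mx1, 39.9% at Spi1 and 32.6% at Nnt, against 42.5% over all sites. The shares over the whole chromosomes were 45.1% for that of Daxx, 40.4% for Mx1, 41.8% for Spi1 and 40.8% for Nnt.

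Sites with the widest gap between the groups were at or near 0 in 1 of them. The 10 named sites that were higher with both WT libraries at 0 were at least 12.9-fold to 27.6-fold higher, and among named sites with both Daxx-KO libraries at 0 the bounds ran from at least 10.4-fold to 30.1-fold lower. A promoter site of Ttn, a muscle gene, held normalized counts of 43.5 and 76.1 in Daxx-KO and 0 in both WT libraries. An intergenic site near Cavin1 held 95.2 and 62.9 in Daxx-KO and 0 in both WT libraries. A distal site of Mef2a was at 0 in both Daxx-KO libraries and at 80.4 and 119 in WT. Over all sites, both WT libraries were at 0 at 460 higher sites and both Daxx-KO libraries at 789 lower sites.

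The GC-rich words of SP/KLF, NRF1 and CTCF stood more often in higher than in lower central windows, at promoters and at distal sites. In distal sites the PU.1 word GAGGAAGT stood in 4.85% of higher and 5.29% of lower central windows, the GATA word AGATAAG in 7.17% and 7.80%, the C/EBP word in 20.7% and 20.3% and the IRF word in 15.7% and 16.6%. In promoter sites the SP/KLF word stood in 16.6% of higher and 5.62% of lower windows, and the GATA word in 5.21% and 7.67%, whereas the PU.1 word stood in 5.04% and 4.75% and the E-box in 31.6% and 30.8%. The NRF1 word GCGCATGC stood in 2.78% of higher and 1.25% of lower promoter windows and in 1.25% and 1.05% of distal ones. The SP/KLF word stood in 3.18% of higher and 2.34% of lower distal windows. The CTCF word AGGGGGCGC was rare, at 1.51% of higher and 0.506% of lower promoter windows and 0.314% and 0.156% of distal ones. Of separated distal sites with the CTCF word, 195 were higher and 140 lower (58.2%, Wilson 95% interval 52.9 to 63.4%), and of those with the SP/KLF word 48.3% were higher, against 40.8% of all distal sites. Over all distal sites these words stood in 5.13% (PU.1), 7.54% (GATA), 20.5% (C/EBP) and 16.2% (IRF), and over all promoter sites SP/KLF stood in 11.2%, GATA in 6.47%, PU.1 in 4.86%, the E-box in 31.2%, NRF1 in 2.02% and CTCF in 1.02%. Over all distal sites the GC-rich words stood in 2.71% (SP/KLF), 1.14% (NRF1) and 0.227% (CTCF). Within bands of GC content the contrasts were smaller for 2 of the words: over 60% GC, the SP/KLF word stood in 45.4% of higher and 36.97% of lower promoter windows and the CTCF word in 4.40% and 4.15%, whereas the NRF1 word stood in 5.01% and 2.46%. These words differ in GC content, as do the groups of sites, with median GC of 53.0% at higher and 48.2% at lower promoter sites. A word is a match of letters and not a bound site.

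H3K27ac at 3 w.p.i. came from other mice, and its libraries were shallower, at 1.33 to 2.26 reads per window. Of 36520 overlapping pairs of separated sites, 60.4% had the same direction (Wilson 95% interval 59.9 to 60.9%), 62.0% at distal sites and 55.6% at promoters. The share was 61.3% under 45% GC, 64.0% at 45 to 50% GC and 62.9% at 50 to 55% GC. It dropped above that, to 51.7% at 55 to 60% GC and 27.03% over 60% GC. Over 60% GC, sites higher at 24 w.p.i. met a higher 3 w.p.i. site in 15.4% of cases and lower ones in 8.95%, so the GC-rich sites that gained at 24 w.p.i. were mostly lower where listed at 3 w.p.i. Higher sites met a 3 w.p.i. site that was higher in 45.5% of cases and lower sites in 29.3%. Of all 3 w.p.i. autosomal sites 39.2% were higher, and of the separated ones 40.2%. Of 58 overlapping pairs of the neutrophil genes, 42 were higher and 3 lower at both times, 9 higher only at 24 w.p.i. and 4 higher only at 3 w.p.i. For erythroid and megakaryocyte genes, 9 were higher and 52 lower at both times, 9 higher only at 24 w.p.i. and 7 only at 3 w.p.i. For HSPC regulators these counts were 80, 54, 23 and 30, for T and NK genes 13, 46, 19 and 7, and for H3.3 chaperones and silencing factors 4, 32, 23 and 11. Such counts also depend on the share of higher sites at each time. At Elane, the 3 w.p.i. site held normalized counts of 298 and 180 in Daxx-KO, compared with 78.4 and 97.1 in WT, and the Spi1 start held 386 and 325 in Daxx-KO against 153 and 159 in WT. The Zbtb46 site was at 15.5 and 8.5 in Daxx-KO, compared with 39.8 and 64.0 in WT, and the floxed Daxx site at 24.2 and 13.6 in Daxx-KO against 65.6 and 105 in WT.

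The other marks of the same 4 mice were measured in separate libraries. Where an H3K27ac site met a separated site of another mark, the direction was the same in 50.3% of cases for Pu.1 and 50.4% for H3.3, both near an even split. The background of higher sites was 46.9% for Pu.1 and 51.3% for H3.3, or 47.8% and 52.2% of their separated sites. For the repressive mark H3K27me3 the same direction was found in 47.6% of cases, 38.5% at promoters and 51.6% at distal sites. At promoters H3K27me3 was higher at 14.0% of sites with higher H3K27ac and at 25.6% of sites with lower H3K27ac. At distal sites these shares were 29.5% and 29.6%, so they hardly differed with the direction of H3K27ac. Of all H3K27me3 sites 40.8% were higher, and of the separated ones 41.8%. H3K27me3 was thus lower at most overlapping sites whichever way H3K27ac went. For H3K9me3 the same direction was found in 48.5% of cases, with 46.9% of all its sites higher. Where sites overlapped, H3K9me3 was higher at 64.1% of sites with higher H3K27ac and at 65.5% of those with lower H3K27ac. Of its own separated sites, 48.2% were higher. H3K9me3 was thus higher at most overlapping sites whichever way H3K27ac went.

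**Figure D5:**
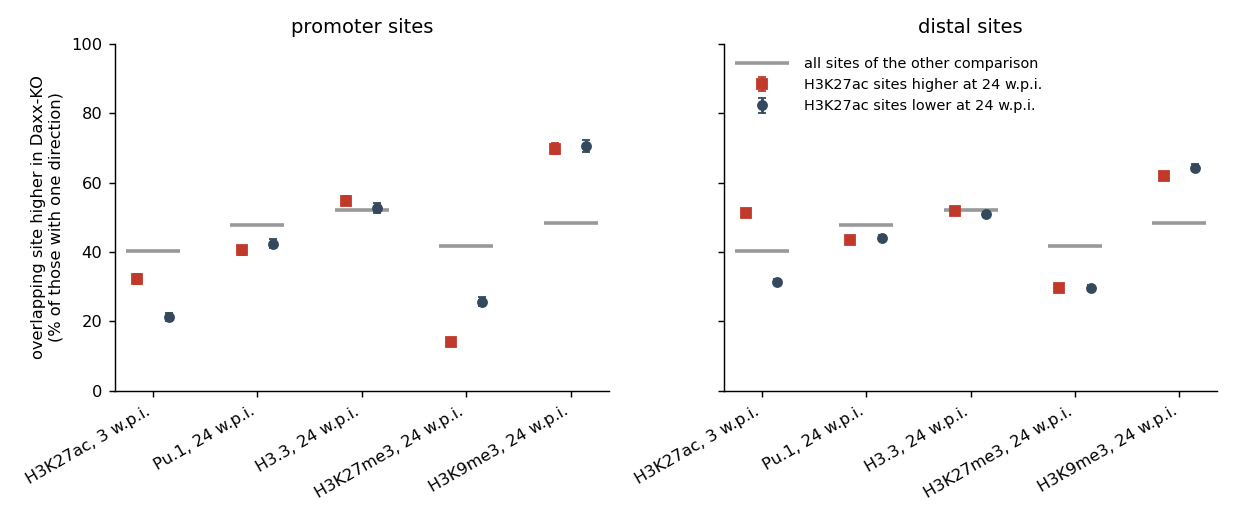
Share of overlapping separated sites, in percent, at which the other comparison was higher in Daxx-KO, for sites with higher (squares) and lower (circles) H3K27ac at 24 w.p.i., at promoter (left) and distal sites (right), with Wilson 95% intervals and grey lines for all sites of the other comparison. H3K27ac at 3 w.p.i. was higher at 51.2% of higher and 31.4% of lower distal sites. H3K27me3 was higher at 14.0% of higher and 25.6% of lower promoter sites, and at 29.5% and 29.6% of distal ones.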

How the data were processed

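H3K27ac CUT&Tag libraries of 2 Daxx-KO and 2 WT mice at 24 weeks post-induction were analysed, grouped by their labelled genotypes. Per the file headers, the authors compared the groups with diffReps 1.55.6 on mm10 (a negative binomial test in 600-bp windows moved by 50 bp, fragment size 100, p cutoff 0.0001, chromosomes X and Y left out). They deposited, per site, a read count per library after scaling between libraries and the group averages as mean signal. The further columns hold the authors' direction, fold change, p-values and best windows and were not used. The submitters' processing notes name CASAVA 1.8.4, cutadapt 1.13, STAR 2.5.3 and bedtools, with no roles. The normalization constants were 1.33 and 0.68 in Daxx-KO, compared with 0.90 and 1.26 in WT, so 1 read is worth 0.75 and 1.46 normalized counts in Daxx-KO against 1.12 and 0.79 in WT. Only sites past the authors' test were used, so a region without a site has no value.

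Directions and log2 ratios (pseudocount 1) were recomputed from the per-library values with Python 3.11.15, numpy 2.4.6, pandas 2.3.3 and scipy 1.17.1 and drawn with matplotlib 3.10.9. The counting functions were tested on simulated data. Sites were annotated with GENCODE vM21, and sequence was read from GRCm38. The members, gene lists and named genes were chosen with earlier results of these data known. Named genes were Daxx, Spi1, Mx1, Nnt, Fbp1 and Fbp2, the 5 promoter and 5 distal sites per direction with the widest gap, up to 3 genes per direction of each list, and genes with a known enhancer. Other genes named by their strongest promoter site, and all genes with counts of distal sites, were chosen after their values were seen. Intervals are Wilson 95% intervals and, like the floor of 3 reads, cover counting error only. Alternatives were other scalings, fold and distance limits, overlap rules and leaving out each library. Some results are not reported here and were left out of the counts of named sites compared with 3 w.p.i.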

Additional observations from a re-analysis of the deposited data

Results flagged for a closer look

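Of 66 named sites that overlapped a site of the 3 w.p.i. H3K27ac table, 16 had all Daxx-KO libraries on the opposite side of WT at the other time. Opposite directions were common over all sites too, as only 60.4% of 36520 overlapping pairs of separated sites had the same direction. The difference between the times was not tested, and the 3 w.p.i. sites often cover a small part of the 24 w.p.i. site. At 24 w.p.i. the log2 ratio was 1.33 over the Padi4 site and 1.33 over the Mmp9 site, whereas the 3 w.p.i. Padi4 site was at 0 in both Daxx-KO libraries and at 12.9 and 17.6 normalized counts in WT. It was 0.82 at Cd3d, where the 3 w.p.i. values were 55.2 and 51.0 in Daxx-KO, compared with 95.6 and 125 in WT. Other sites higher at 24 and lower at 3 w.p.i. were those of Prf1 (3.33), Car1 (1.60), Nnt (0.65) and 2 of Spi1 (1.17 and 1.21). Sites lower at 24 and higher at 3 w.p.i. were those of Nr4a3 (-6.38, with both Daxx-KO libraries at 0, so the ratio rests on the pseudocount), Id2 (-3.92), Siglecf (-4.39), Sp7 (-2.64), Daxx downstream of the gene (-1.01), Spi1 (-1.64) and 2 of Fbp1 (-1.67 and -1.27).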

How the results depend on the processing

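The counts of higher and lower sites stayed within 1.5 times of 80019 and 108380 under all alternatives run. Without 1 library they ran from 81071 to 81782 and from 109251 to 110071. These ranges are no independent check, because the sites were selected by a test on the same libraries. The promoter share (49.3%) and distal share (40.8%) were 40.9% and 38.6% with at least 2-fold between means, 48.7% and 41.5% with sites within 1 kb joined, 48.2% and 40.3% with the same sum, 46.4% and 40.5% with promoters within 3 kb, 56.9% and 44.7% with the same median, and 56.8% and 44.7% with the same mean reads. The promoter share was 54.98% with promoters within 250 bp. The same-direction share at 3 w.p.i. was 61.8% with 50% overlap and 58.8% within 1 kb, for H3.3 49.7% within 1 kb, and for H3K27me3 46.0% with 50% overlap and 49.7% within 1 kb. With the same mean reads, distal shares were 54.2% for HSPC regulators, 57.8% for myeloid factors, 80.5% for neutrophil genes, 38.7% for monocyte and dendritic cell genes, 47.8% for T- and NK-lineage genes, 50.3% for inflammation genes and 51.8% for receptors, where the main value was 44.1% and the balance reversed. Promoter shares were then 85.2% for myeloid factors and 63.8% for interferon genes. With sites taken over the gene body and 10 kb, the T- and NK-lineage promoter value was 41.1%, the cell-cycle distal value 49.7% and the non-blood distal value 53.5%. With 1 promoter site per gene, cell-cycle genes reached 83.3% and H3.3 chaperones 93.5%. The causes of these shifts were not tested. The same median and mean-read scalings, the lists' values under them and the single promoter site per gene were chosen after seeing the data. No paired analysis was possible because no test was fitted across sites, and nothing in the labels ties a Daxx-KO mouse to the WT mouse of the same number. Depth limits single sites, since 3 reads are worth 2.25 and 4.38 normalized counts in Daxx-KO against 3.36 and 2.37 in WT.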
